A study of Mus musculus with 16 samples.

Results

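Crabp1 and Rdh13 are 2 mouse genes that handle retinoids, the vitamin A compounds, and they were followed through RNA of the whole hypothalamus and RNA on tagged ribosomes of prepronociceptin (Pnoc) neurons. They were chosen by name with their values known, namely the FPKM of input and immunoprecipitate in each diet and the diet difference of the log2 fold. Those values are therefore given as a description, and no test is used in their support. They are 2 of 6686 genes or loci listed in the chow table and of 6540 listed in the high-fat table.

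All mice were PNOC-L10a-EGFP animals of strain C57BL/6N, 10 to 12 weeks old, in which ribosomal protein L10a carries a green fluorescent tag, so that an antibody against the tag precipitates ribosomes of the marked cells. The groups received control diet (chow) or high-fat diet for 3 days, and each diet had 4 input libraries from hypothalamus RNA and 4 immunoprecipitate libraries, 16 in all. Neither the driver of the transgene nor the number of animals behind a library could be read from the sources. The files hold 1 FPKM value per group (fragments scaled by transcript length and by library size), so values per library and read depth are unknown.

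Retinol from the blood is oxidised to retinaldehyde by dehydrogenases and then to retinoic acid by enzymes of the Aldh1a family. Cellular binding proteins carry these lipids through the cytosol, retinoic acid acts through the nuclear receptors of the Rar and Rxr families, and Cyp26 enzymes break it down. In the rodent hypothalamus retinoic acid synthesis is known from tanycytes, the cells that line the third ventricle, and in the brain coverings from meningeal cells. Crabp1 is a cytosolic protein that binds retinoic acid. Rdh13 is a short-chain dehydrogenase of the inner mitochondrial membrane that can reduce retinaldehyde, as known from the human enzyme.

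Crabp1 (ENSMUSG00000032291) lies on the plus strand of chromosome 9 at 54764748 to 54773110 (GRCm38.p6), and Rdh13 (ENSMUSG00000008435) on chromosome 7 at 4424770 to 4445649, transcribed from the minus strand. Both deposited spans match the GENCODE M21 gene. Crabp1 has 1 annotated transcript with 4 exons that encodes 137 residues. Rdh13 has 6, of which 2 are protein-coding, and its full-length form has 7 exons and encodes 334 residues. The other 4 are a decay substrate, a retained-intron form and a pair of processed transcripts. The Rdh13 entry is repeated with the same values for Gm24605, a predicted microRNA gene at 4441920 to 4442015 on the same strand. Gm24605 overlaps an exon of the retained-intron transcript and of no other Rdh13 transcript, so the values belong to the whole locus and not to the microRNA.

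Coding sequences of related genes are shown because Crabp1 and Crabp2, and Rdh13 and Rdh14, had opposite directions in the tables, which makes shared reads relevant. Each pair is printed over the 120 coding bases in which it is most alike, from GENCODE M21 (GRCm38), 5′ to 3′, with capitals where the pair differs.
Crabp1, coding bases 151 to 270: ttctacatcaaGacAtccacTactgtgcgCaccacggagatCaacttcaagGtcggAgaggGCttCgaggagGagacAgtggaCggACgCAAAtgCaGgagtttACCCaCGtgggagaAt
Crabp2, coding bases 151 to 270: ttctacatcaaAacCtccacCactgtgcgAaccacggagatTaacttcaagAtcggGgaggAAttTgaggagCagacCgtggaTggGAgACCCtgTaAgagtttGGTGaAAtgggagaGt
Rdh13, coding bases 350 to 469: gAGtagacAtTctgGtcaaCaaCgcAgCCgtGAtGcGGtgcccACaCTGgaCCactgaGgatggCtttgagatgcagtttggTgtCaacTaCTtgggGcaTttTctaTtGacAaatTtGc
Rdh14, coding bases 398 to 517: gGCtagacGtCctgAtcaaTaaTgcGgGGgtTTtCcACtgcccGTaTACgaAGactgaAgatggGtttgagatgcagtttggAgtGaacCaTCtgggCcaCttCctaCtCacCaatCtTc
Even in these windows 28 of 120 bases differ between Crabp1 and Crabp2, and 37 of 120 between Rdh13 and Rdh14. Over the aligned coding sequence, Crabp1 and Crabp2 were 70.8% identical with a longest identical run of 11 bases. Rdh13 was 61.1% identical to Rdh14, with a longest run of 17 bases, and 65.0% identical to Rdh12, with a longest run of 14. How many reads the authors' counting split between relatives is unknown.

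Crabp1 stood among the most enriched transcripts on tagged ribosomes in both diets. In the authors' deposited chow table its input level was 9.23 FPKM and its immunoprecipitate level 38.3 FPKM, a 4.15-fold enrichment. In the deposited high-fat table its input level was 12.7 FPKM and its immunoprecipitate level 39.4 FPKM, a 3.09-fold enrichment. The immunoprecipitate was thus far above the input in each diet, and the ribosome-bound level was nearly the same in both.

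The log2 fold of Crabp1 was 2.05 in chow, with a standard error of 0.31, and 1.63 after the high-fat diet, with a standard error of 0.30 (authors' deposited folds, errors recovered from the deposited statistic over 4 libraries per group). Errors recovered from the deposited p-value were wider for this gene, 0.51 and 0.40, where its p of 5e-05 in both diets is the lowest in the tables. Its deposited q-value was 0.000379 in both, the lowest value that occurs in the tables. It ranked 16 from the top of 6671 finite folds in chow and 26 from the top of 6524 after the high-fat diet. Centring folds on the median of listed tests with at least 1 FPKM left it at 1.64 and 1.21. Fewer cells of a type and less RNA per cell cannot be told apart in such bulk samples.

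Rdh13 was lower on tagged ribosomes than in the input in both diets. In the deposited chow table its input level was 9.45 FPKM and its immunoprecipitate level 6.26 FPKM, or 66.2% of input. In the deposited high-fat table its input level was 17.8 FPKM and its immunoprecipitate level 6.04 FPKM, or 34.0% of input. The input of the high-fat group was the value that stood apart, while both immunoprecipitates were alike.

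The deposited log2 fold of Rdh13 was -0.59 in chow (standard error 0.29, q = 0.00103) and -1.56 after the high-fat diet (standard error 0.30, q = 0.000379). Errors recovered from the deposited p-values were 0.16 in chow and 0.38 after the high-fat diet. In chow the depletion was shallow, with 83.5% of depleted tests lying deeper, against 43.2% after the high-fat diet. Of these 2 genes 1 was enriched and 1 depleted in each diet. For comparison, 53.8% of listed chow tests were enriched and 46.2% depleted, and 55.2% and 44.8% of listed high-fat tests. The choice of the genes used these contrasts, so nothing is read from that count.

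FPKM is scaled by transcript length, so levels of both genes can be set side by side. In the chow input they were nearly equal, with a ratio of Crabp1 to Rdh13 of 0.976. On tagged ribosomes Crabp1 was 6.12 times as abundant as Rdh13 in chow and 6.53 times after the high-fat diet. In the input of the high-fat group the ratio was 0.718.

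**Figure D1:**
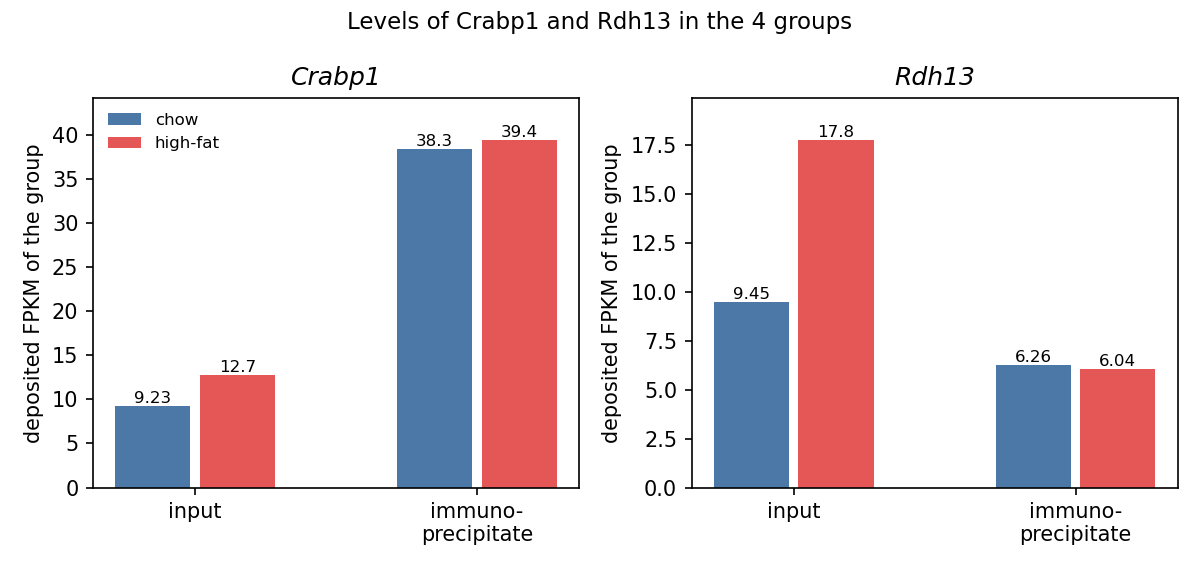
Deposited FPKM (y axis, from 0) of Crabp1 and Rdh13 in input and immunoprecipitate of chow-fed and high-fat-fed mice; each bar is the authors' single value for a group of 4 libraries, so no error bars can be drawn. The immunoprecipitate bars of each gene are nearly level between diets (38.3 and 39.4 for Crabp1, 6.26 and 6.04 for Rdh13), and both input bars are higher after the high-fat diet.

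Setting the folds of both diets side by side addresses whether the short high-fat feeding altered how far each transcript was enriched. For Crabp1 the high-fat log2 fold was lower than the chow fold by a difference of -0.43, with a standard error of 0.43, or 0.65 from the p-values. For Rdh13 the difference was -0.96 with a standard error of 0.42, or 0.41 from the p-values. After centring on the median of the 5149 tests listed in both tables with at least 1 FPKM in the higher fraction of each diet, the differences were -0.43 and -0.97. Rdh13 had the 15th lowest and Crabp1 the 131st lowest difference of these tests.

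For both genes the values that differed between diets were those of the input, and the ribosome-bound levels were nearly equal. The input of Rdh13 was 1.88 times as high after the high-fat diet as in chow (0.91 on the log2 scale), and its immunoprecipitate 0.964 times as high (-0.052). The input of Crabp1 was 1.38 times as high (0.47 on the log2 scale), and its immunoprecipitate 1.03 times as high (0.041). These ratios compare levels across both tables, and it is not stated whether the tables were scaled together, but the median ratio of all 5149 tests was close to 1 in each fraction (-0.015 on the log2 scale for input and -0.011 for the immunoprecipitate).

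Input levels differed little between diets for most transcripts, with 88.5% of tests within 0.2 log2 units and a standard deviation of 0.16. The input difference of Rdh13 was the 2nd highest of 5149 and that of Crabp1 the 24th. The immunoprecipitate differences of the same genes ranked 3103 and 1851 from the top, in the middle of the range. Among the 2497 tests whose immunoprecipitate differed by at most 0.1 log2 units, 8 had an input difference at least as high as that of Crabp1, and Rdh13 had the highest. Besides both genes these were Spi1 (0.75) and Cd52 (0.51), which are known from microglia and other myeloid cells, Ppp1r1b, a phosphatase regulator of striatal neurons (0.69), Tmem86b (0.65), the pseudogene Trmt112-ps2 (0.64) and Dlx2, a transcription factor of GABA neurons (0.57). They were named after their values were seen.

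Most other transcripts with lower folds differed more on the ribosomes than in the input. Of the 131 tests with a difference no higher than that of Crabp1, 116 were depleted and 15 enriched in both diets. In 23 of the 131 the input differed by more than the immunoprecipitate. Shares of these counts over all 5149 tests were not computed. Immunoprecipitate differences varied more over all tests, with a standard deviation of 0.21 against 0.16 for the input. Nothing is therefore read from these counts about Crabp1 and Rdh13. The neighbours of Crabp1 in that order were Fzd7, a Wnt receptor (-0.43), and 1700030C14Rik (-0.43) below it, and Rab29, a small GTPase (-0.42), and Tnfaip8 (-0.42) above it. Of these, Rab29 had an input difference like that of Crabp1 (0.46) and the immunoprecipitates of the other 3 were lower after the high-fat diet. Next to Rdh13 stood Cyp4f14, a cytochrome P450 (-0.97), Hist1h4f (-0.96), Nat2, an acetyltransferase (-0.96), and the joint locus of Higd1c, Methig1 and Mettl7a2 (-0.94). Cyp4f14 and Nat2 had nearly equal inputs in both diets and lower immunoprecipitates, with differences of -0.97 and -0.92 in that fraction. Reads of Hist1h4f are uncertain because histone genes are near-identical copies.

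No gene passed a test of the diet difference. With SciPy and the recovered standard errors, a z-test (two-sided, Benjamini-Hochberg adjusted) called 0 of 5149 tests at an adjusted p of 0.05 (0.0%). With errors recovered from the deposited p-values it also called 0. At an unadjusted p of 0.05 it called 1 test (0.0194%), and with the other errors 2. Both genes are among the 5149 tests but were chosen from this contrast, so nothing is read from these counts about them. The recovered errors are wide beside the data as a whole, with a median of 0.43 log2 units against a standard deviation of 0.20 over all differences.

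**Figure D2:**
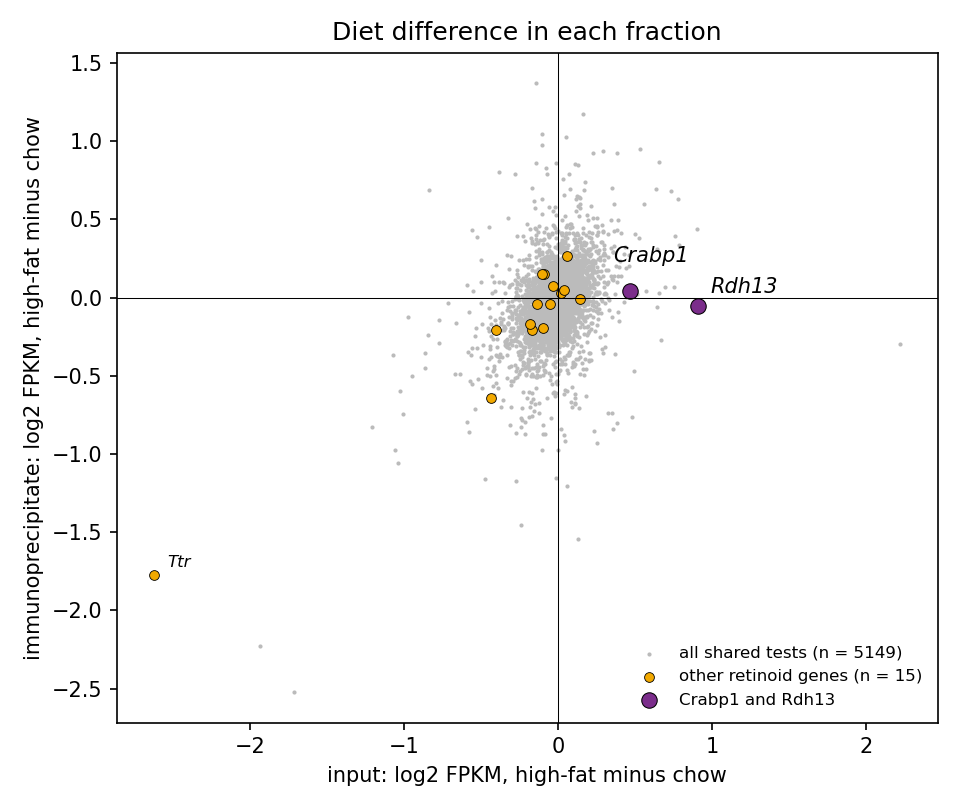
Log2 FPKM after high-fat diet minus chow in the input (x axis) and in the immunoprecipitate (y axis) for the 5149 tests listed in both tables (grey), the 15 other retinoid genes among them (orange) and Crabp1 and Rdh13 (purple). Crabp1 (0.47 and 0.041) and Rdh13 (0.91 and -0.052) lie to the right on the zero line of the immunoprecipitate, while Ttr lies at the lower left.

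Other genes of retinoid handling were more often depleted than enriched on tagged ribosomes. Of 65 such genes, 6 were enriched and 13 depleted in chow, by the authors' deposited table (listed genes had a median log2 fold of -0.93, against 0.37 over all listed tests), and 7 enriched and 11 depleted in the high-fat table (median -1.28, against 0.39). The remaining 46 and 47 were not listed and cannot be called unchanged. The tables together hold 13226 significant tests of the 48459 that the deposited adjustment implies, or 27.3%. All 15 genes that passed the filters in both tables had the same direction in each. The share with the same direction over all tests listed in both was not computed, so nothing is read from that count.

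Enzymes that make retinoic acid were among the lowest. Aldh1a1 had an input of 155 FPKM and an immunoprecipitate of 20.7 FPKM in chow, and 115 and 13.3 FPKM after the high-fat diet (log2 folds -2.91 and -3.11, q = 0.000379 in both deposited tables). Aldh1a2, which makes retinoic acid in meninges, had log2 folds of -2.50 and -2.48, and Aldh1a7, a close relative of Aldh1a1 that may share reads with it, -2.34 and -1.86. Aldh1a3, the third enzyme of the family, was listed only in the high-fat table, enriched at 0.88 from 0.300 to 0.553 FPKM. Its absence from the chow list is not a measured difference.

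Dehydrogenases and reductases that act before this step went both ways. Dhrs3, which turns retinaldehyde back to retinol, was depleted at -2.18 in chow and -1.94 after the high-fat diet, and Dhrs4, a peroxisomal reductase, at -0.93 and -1.07 (deposited tables). Rdh10, which makes retinaldehyde for retinoic acid synthesis, was listed only in chow (-0.61). Rdh14, the other listed enzyme of the group around Rdh13, was enriched at 0.44 and 0.45, from 13.4 to 18.2 FPKM in chow and from 13.6 to 18.6 FPKM after the high-fat diet. Its input differed by 0.017 log2 units between diets, against 0.91 for Rdh13. Rdh11, Rdh12, Dhrs13 and Wwox of that group were not listed, and Dhrsx was not found in the annotation. Akr1b3, an aldose reductase, was enriched at 0.34 and 0.35. Rdh5 (0.55 and 0.39) shares a deposited locus with Bloc1s1, so its value is uncertain. The medians used for centring were 0.41 in chow and 0.42 after the high-fat diet. After centring, Akr1b3 turned to depletion in both diets and the Rdh5 locus in the high-fat table. The folds of Rdh14 lay only just above these medians, so its enrichment was near that of a typical listed test.

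Of the 7 cellular binding proteins besides Crabp1, 1 was enriched, 3 were depleted and 3 were not listed in each diet, where 53.8% and 55.2% of all listed tests were enriched. Crabp2, the other cellular retinoic acid binding protein, went from 2.62 to 0.819 FPKM in chow and from 1.98 to 0.710 FPKM after the high-fat diet (log2 folds -1.68 and -1.48, q = 0.000379 in both deposited tables). Rlbp1, a carrier of retinaldehyde, was depleted at -2.73 and -2.47. Fabp5, a fatty acid carrier that can also bind retinoic acid, was enriched at 0.49 and 0.46. These folds were close to the medians used for centring, 0.41 in chow and 0.42 after the high-fat diet. Of the 15 members of the lipid-binding family to which Crabp1 belongs, 3 were enriched, 3 depleted and 9 not listed in each diet, with Crabp1 counted among the enriched, a split close to the 53.8% and 46.2% over all listed chow tests. Fabp3, a fatty acid carrier of neurons and muscle, was enriched at 0.91 and 0.73, and Fabp7, which marks astrocytes and progenitors, depleted at -3.46 and -3.41.

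Of 8 nuclear receptors, 2 were enriched and 1 depleted in each diet, where 53.8% and 55.2% of all listed tests were enriched. Rara, a retinoic acid receptor, had log2 folds of 0.52 in chow and 0.61 after the high-fat diet, and Rxrb, its partner, 0.51 and 0.62. These folds were near the median of all enriched tests, 0.60 in chow and 0.59 after the high-fat diet. Rorb, an orphan receptor, was depleted at -0.68 and -0.66, and the other 5 were not listed (deposited tables). Of 13 known targets of retinoic acid, 0 were enriched and 5 depleted in chow, and 0 and 4 after the high-fat diet, where 46.2% and 44.8% of all listed tests were depleted. They include Rarres2, which encodes chemerin (-3.11 and -2.90), Dhrs3 and Crabp2, and in chow Cyp26b1, which breaks down retinoic acid (-0.58). None of 6 coregulators and none of 7 genes of retinoid storage and carotenoid cleavage was listed.

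No diet difference passed the test in the other retinoid genes (z-test as above, adjusted over all 5149 tests). The count was 0 of 15, also at an unadjusted p of 0.05. At that level the z-test called 1 of all 5149 tests (0.0194%), with errors wide beside the data. It could hardly have called any of the 15 other retinoid genes, so nothing is read from this count. Their differences in log2 fold ran from -0.21 for Aldh1a1 to 0.85 for Ttr, a thyroxine carrier made in the choroid plexus. Their input differences ran from -2.62 for Ttr to 0.14 for Dhrs4, below those of Crabp1 and Rdh13. Crabp1 and Rdh13 were chosen with their values known and ranked 24th and 2nd of all 5149 input differences. Nothing is therefore read from this comparison. Ttr was the lowest of all 5149 input differences, from 54.7 to 8.89 FPKM.

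**Figure D3:**
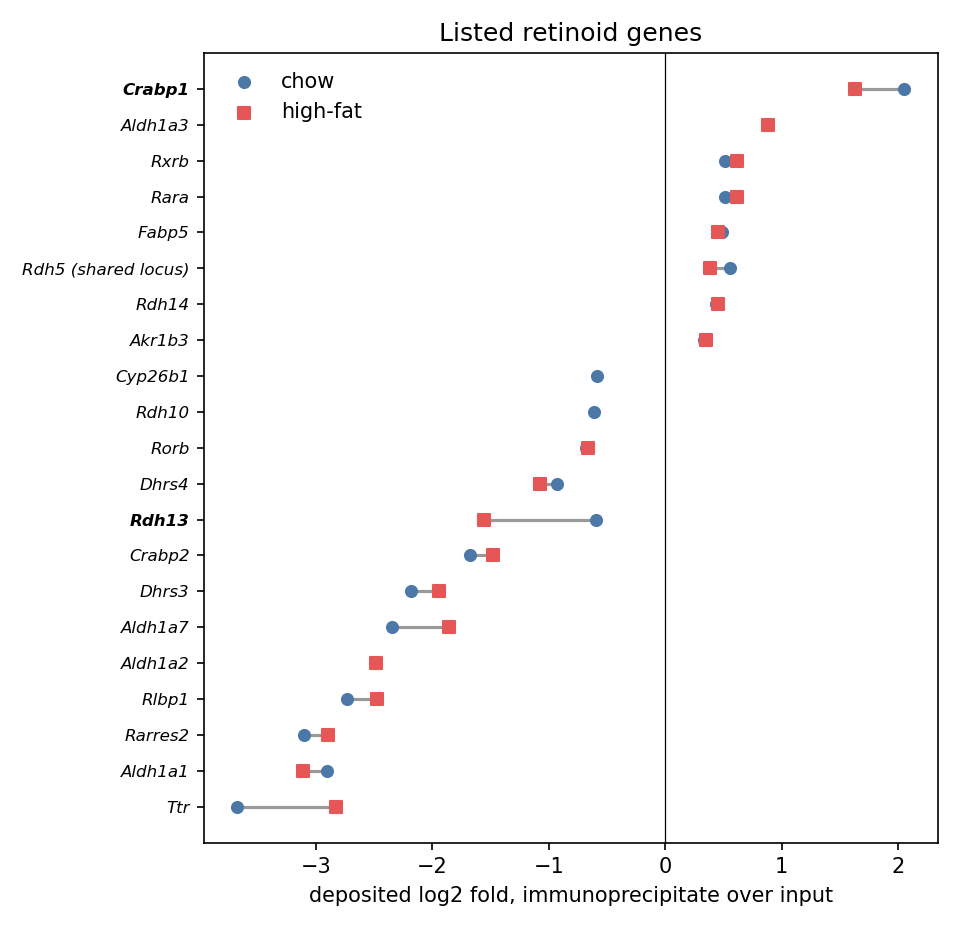
Deposited log2 fold of immunoprecipitate over input (x axis) for the listed retinoid genes reported here (y axis) in chow (circles) and after the high-fat diet (squares), joined where both are listed. Crabp1 is at the top at 2.05 and 1.63, Rdh13 lies among the depleted genes with -0.59 and -1.56, and Ttr is at the bottom.

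Of 24 short-chain dehydrogenases of the wider family of Rdh13 that are not on the retinoid list, 5 were enriched, 8 depleted and 11 not listed in each diet (median log2 folds of the listed -0.50 and -0.56, against 0.37 and 0.39 over all listed tests). Spr, which makes the cofactor tetrahydrobiopterin, was enriched at 0.82 in chow and 1.05 after the high-fat diet, and Cbr1, a carbonyl reductase, at 0.70 and 0.72. Bdh2 was depleted at -3.05 and -3.19, Hpgd, which inactivates prostaglandins, at -2.12 and -2.14, and Decr1, a mitochondrial enzyme of fatty acid oxidation, at -0.74 and -0.96 (deposited tables).

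The transcripts most like Crabp1 over the 4 group values included genes known from neurons. Likeness was the Euclidean distance between log2 FPKM profiles, each centred on its own mean, among 4853 candidates listed in both tables under a single identifier, with a median distance of 1.44. Prph, the intermediate filament peripherin, was nearest (0.115), followed by Tac2, the precursor of neurokinin B (0.141), Hdc, which makes histamine (0.221), Gm4881 (0.225) and Gm16976 (0.260). Tac2 had an input of 37.4 FPKM and an immunoprecipitate of 141 FPKM in chow, and 46.8 and 140 FPKM after the high-fat diet. By the way they were picked they share the shape of Crabp1, with inputs higher after the high-fat diet by 0.16 to 0.42 log2 units and immunoprecipitates that differed by at most 0.066.

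No transcript lay as close to Rdh13. Among 4854 candidates, with a median distance of 1.72, the nearest was Qtrt2, a subunit of a tRNA-modifying enzyme (0.341), followed by Slc5a7, the choline transporter (0.408), Efcab5 (0.422), Ankrd33b (0.447) and Gm11560 (0.450). Slc5a7 had nearly the same input difference (0.90), from 1.73 to 3.23 FPKM, but its immunoprecipitate was also higher, by 0.44. With at least 5 FPKM in the highest group, 3 of the 5 genes nearest to Crabp1 and 0 of the 5 nearest to Rdh13 remained, so the neighbours of Rdh13 rest on low levels.

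**Figure D4:**
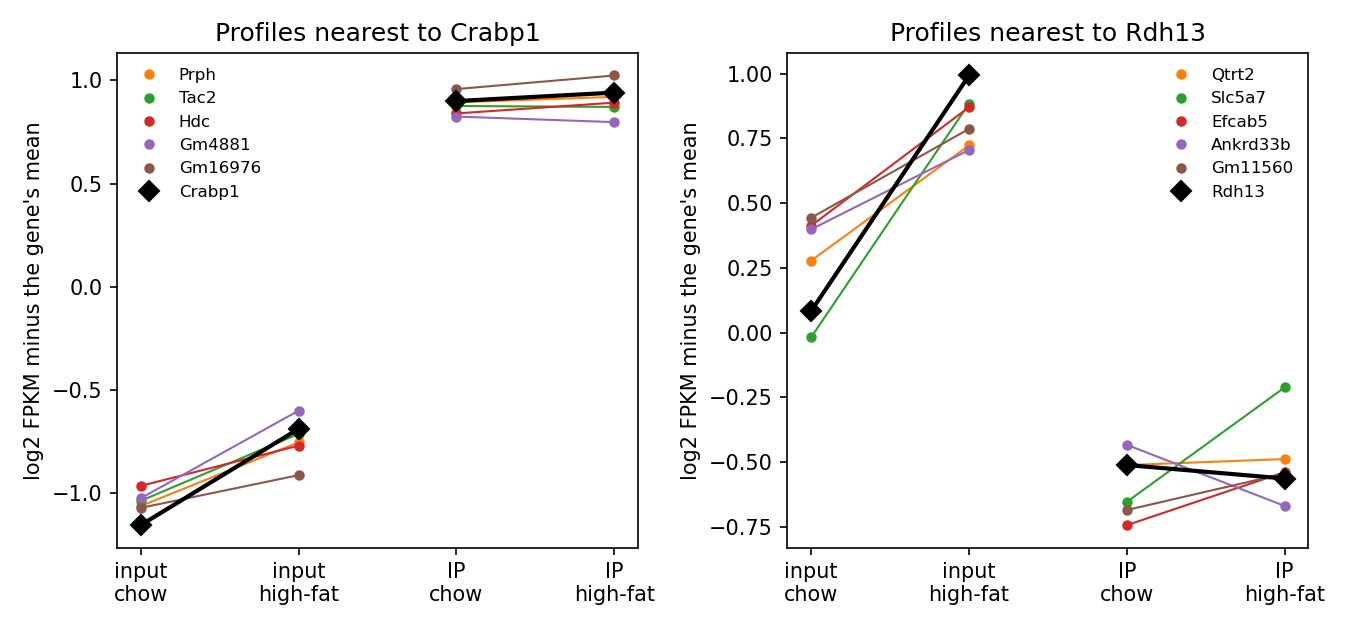
Log2 FPKM minus the gene's own mean (y axis) in the 4 groups (x axis; IP, immunoprecipitate) for Crabp1 and Rdh13 (black diamonds) and the 5 nearest transcripts of each (coloured points); lines join the diets within a fraction. The profiles around Crabp1 nearly coincide, with distances from 0.115 to 0.260, and those around Rdh13 lie farther apart, from 0.341 to 0.450.

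Few genes beside the loci were listed, so their surroundings could hardly be compared. Within 50000 bases of Crabp1 the annotation has 2 other genes, and neither was listed. Around Rdh13 it has 8, of which Gm24605 carries the Rdh13 values and Ppp1r12c, a regulatory subunit of myosin phosphatase, had inputs of 35.6 FPKM in chow and 35.9 FPKM after the high-fat diet. Gm15494, on the same strand, ends 48 bases before the Rdh13 start and was not listed. Whether counting used the strand of reads is not stated.

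Markers of cell types were read beside the input differences. All 4 markers of Pnoc and GABA neurons (Pnoc, Gad1, Gad2 and Slc32a1) were enriched in both deposited tables, where 53.8% and 55.2% of listed tests were. Astrocytes and oligodendrocytes, with 6 markers each, had every marker depleted, against 46.2% and 44.8% of listed tests. Listed markers of the other cell types were all depleted too. Cx3cr1, Cldn5, Rax and Col1a1 were not listed, and Pecam1 and Kl only in chow. Input differences are given for the Pnoc and GABA, astrocyte and oligodendrocyte lists first. Median input differences of these lists were 0.0022, -0.038 and -0.067 log2 units, and those of 5 listed microglial markers 0.11, 2 endothelial and mural markers -0.16 and 3 markers of tanycytes and ependyma -0.018. Summed over markers listed in both tables, the input of astrocyte markers was 225 FPKM in chow and 221 FPKM after the high-fat diet, that of oligodendrocyte markers 1508 and 1456, of microglial markers 28.48 and 29.99, of endothelial and mural markers 20.6 and 19.4, of tanycytes and ependyma 18.2 and 16.8, and of Pnoc and GABA markers 376 and 423. Meningeal and choroid plexus markers summed to 109 and 65.9 FPKM. Apart from Ttr (-2.62), the input differences of Dcn, Slc6a13 and Aldh1a2 ran from -0.18 to 0.061. Igf2, a joint locus that is also in that sum, went from 41.0 to 44.4 FPKM, and Lum from 0.430 to 0.431 FPKM. Ttr and Aldh1a2 are also on the retinoid list. No listed marker was at 0. Of those with at least 1 FPKM in the higher fraction of each diet, the highest input difference was that of Gad2 at 0.22. Flt1, an endothelial marker below 1 FPKM, went from 0.609 to 0.730 FPKM, a larger ratio than that of Gad2. Genes outside these lists, named after their values were seen, differed more. Spi1 (0.75) and Cd52 (0.51), known from microglia, had higher inputs after the high-fat diet at levels of 1.28 and 2.17 FPKM and of 1.04 and 1.49 FPKM. The pituitary hormone genes Gh and Cga had lower inputs, from 781 to 204 FPKM and from 72.6 to 22.1 FPKM (-1.94 and -1.71), and their immunoprecipitates were lower too (-2.23 and -2.52). The part of tissue composition and dissection in the input differences of Crabp1 and Rdh13 was not tested.

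**Figure D5:**
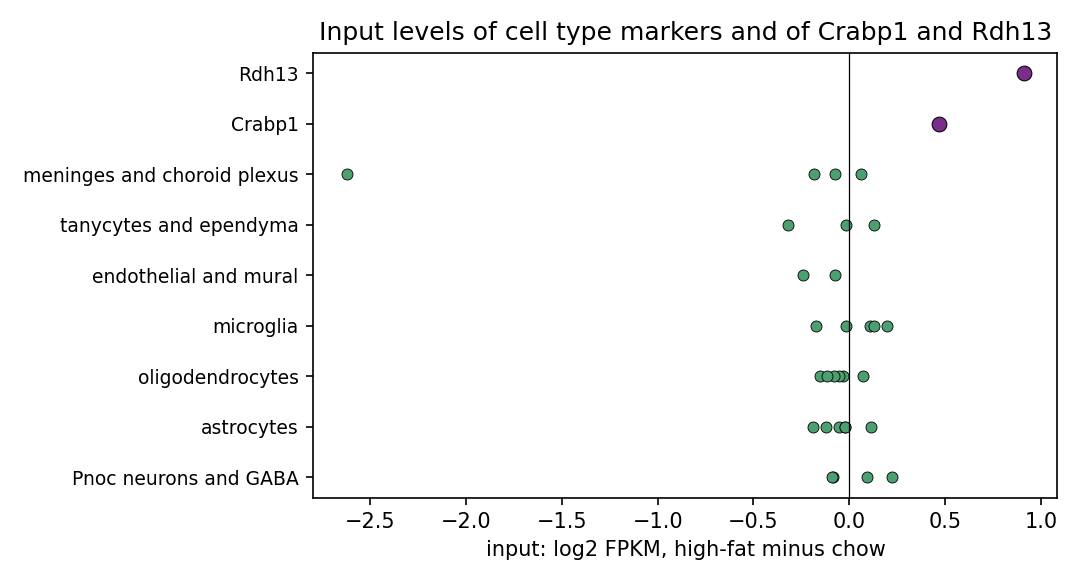
Input log2 FPKM after high-fat diet minus chow (x axis) for the listed markers of each cell type (green, 1 point per gene, tests listed in both tables with at least 1 FPKM) and for Crabp1 and Rdh13 (purple). Differences of the markers plotted lie between -0.32 and 0.22 except Ttr at -2.62, below Crabp1 (0.47) and Rdh13 (0.91). The joint locus of Igf2 is not plotted. Spi1, Cd52, Gh and Cga are on none of these lists and are not plotted.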

How the data were processed

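RNA of the hypothalamus (input) and of precipitated ribosomes was amplified and sequenced in 4 libraries per group, per the labels' protocols. The submitters' processing notes name Cufflinks 2.2.1 with Cuffdiff, StringTie 1.3.4d, HISAT2 2.1.0 and the build GRCm38.p6, without further settings. What the authors deposited was 1 table per diet, holding significant tests only, with 1 FPKM value per group, the log2 fold, a test statistic (a signed score), a p-value and a q-value per the file headers. Amplification of small RNA amounts can shift levels between fractions.

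Repeated entries of a locus, with equal values, were counted as 1 test. Calls are the authors' q-value at 0.05. The difference between diets was the log2 fold after high-fat diet less that in chow, centred on its median, for tests with finite folds and at least 1 FPKM in the higher fraction of each diet. Standard errors were recovered as log2 fold divided by the deposited statistic. Where p-values lay above the lowest deposited value, their normal deviate exceeded the statistic by a median factor of 1.96 (chow) and 1.95 (high-fat). The recovered errors may thus be too wide, though Crabp1 in both diets and Rdh13 after the high-fat diet lie at that lowest value. P-values at the lowest deposited value, 5e-05, hold no more than that bound. Errors from them are wider for Crabp1 in both diets and for Rdh13 after the high-fat diet (0.38 against 0.30). For Rdh13 in chow, where p lies above that value, the error from the p-value is narrower (0.16 against 0.29). A z-test is a normal approximation that values per library would be needed to replace. Python 3.11.15 and SciPy 1.17.1 were used. Of 65 symbols in the retinoid list besides Crabp1 and Rdh13, 64 were found in GENCODE M21, older names included. Named were both genes, listed genes of the fixed lists, the 5 nearest profiles and the 2 tests on either side in the diet difference. Genes, lists and tests were chosen with earlier results of these data known. Columns of per-sample values left unused numbered 0. P-values measure the spread between these libraries, which may be technical. The values of 1 listed gene are not reported here, though counts and medians of its lists include it.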

Additional observations from a re-analysis of the deposited data

How the results depend on the processing

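Of 28 alternative values computed, 25 stayed on the same side or within the limits set. At a deposited q of 0.01 the count of enriched retinoid genes after the high-fat diet was 3 instead of 7; 4 of the 7 had q-values between both thresholds by construction. With at least 5 FPKM, 3 of the 5 transcripts nearest to Crabp1 and 0 of the 5 nearest to Rdh13 were the same, by construction of the stricter filter. The centred diet difference of Crabp1 lay between -0.43 and -0.39 and that of Rdh13 between -0.97 and -0.90 over the pseudocounts 0.1 and 1 and without centring. The count of called diet differences was 0 under all 4 alternatives. No paired analysis was possible because the tables hold 1 value per group and none per library, and for the same reason no library could be left out. Depth is unknown, so no limit of detection can be given.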

Other observations

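The single input difference above that of Rdh13 belonged to a joint locus of Lncppara, Mirlet7b and Mirlet7c-2, a host transcript of let-7 microRNAs. Its deposited input was 1.24 FPKM in chow and 5.79 FPKM after the high-fat diet, and its immunoprecipitate 0.213 and 0.173 FPKM, a pattern in which, as for Rdh13, the input was higher and the immunoprecipitate was not. It was named after its values were seen, and several genes share its reads.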
